A study of Mus musculus with 6 samples.

Results

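B-1-like B cells were picked out of single-cell transcriptomes of the mouse peritoneal cavity by the UMIs (counted molecules) of a few genes. A cell was taken as a B cell if it had at least 500 genes, at most 10% mitochondrial UMIs, at least 4 UMIs of Cd79a and Cd79b together, and none of Csf1r, Adgre1, Cd3d and Cd3e. A B cell was called B-1-like if it had at least 1 UMI of Bhlhe41, Zbtb32 or Cd5, none of Fcer2a and Vpreb3, and at most 1 of Egr3 and Egr4 together. These measured values chose the cells, so the levels of those genes describe the choice and were not tested. Of 7760 barcodes, 7665 cells passed the filter, 2786 of them were B cells, and 1030 of these were B-1-like. The comparison cells were the 84 B cells that had at least 1 UMI of Fcer2a and none of Bhlhe41, Zbtb32 and Cd5, here called Fcer2a-expressing B cells.

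The study set out to follow macrophages as they take up dying cells, with and without the uptake receptor MerTK. Its 6 libraries came from C57BL/6 mice of 8 to 12 weeks, MerTK +/+ or MerTK -/-, each with a media change (control) or with co-culture with UV-killed human Jurkat T cells, at 5 apoptotic cells per peritoneal cell, for 2 h or for 6 h. Every library pooled 3 mice, and what it holds are lavage cells that stuck to a plate for 1 h and were left after the others had been rinsed off, so the B cells described here are those that stayed. The samples carry the cell type label macrophage, and the B cells were not a target of the isolation. Each cell's barcode carries a library number from 1 to 6 that no label ties to a genotype or time point, so genotypes and time points were not compared, and all values below are given over, or within, the 6 library numbers. The 6 libraries are not replicates of a condition, and a p-value over them measures only the spread among these 6 libraries.

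B-1 cells are a self-renewing B cell lineage of the body cavities. They make natural IgM without prior infection, carry a restricted set of antigen receptors, many of which bind phospholipids such as phosphatidylcholine exposed on dying cells and bacteria, and they are held back by inhibitory receptors on their surface. Follicular (B-2) B cells recirculate through lymph nodes and spleen, and carry IgD and the low-affinity IgE receptor CD23, which Fcer2a encodes. Bhlhe41 is a transcription factor needed for B-1a cell development and self-renewal, Zbtb32 is a transcriptional repressor of activated and memory B cells, and Cd5 encodes the surface protein by which B-1a cells are distinguished from B-1b cells.

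B-1-like cells made up 37.0% of B cells (exact 95% interval 35.2 to 38.8%), and the libraries ranged from 32.8 to 41.7% with a median of 37.0%. The lowest library held 108 of them and the highest 253. Fcer2a-expressing cells made up 3.02% of B cells and numbered 7 to 21 in a library. A further 193 B cells with a UMI of Bhlhe41, Zbtb32 or Cd5 and none of Fcer2a were left out for Vpreb3 (32 cells) or for Egr3 and Egr4 (162 cells), with 1 cell over both limits, and 60 had both Fcer2a and one of these 3 genes. Of the other B cells, 1183 had none of Fcer2a, Vpreb3 and these 3 genes and met the limit on Egr3 and Egr4, and 236 had neither Fcer2a nor these 3 genes and were over a limit. B-1-like cells were deeper, with a median of 6386 UMIs and 1932 genes against 2918.5 UMIs and 1171.5 genes in Fcer2a-expressing cells and 4313 UMIs in the 1183 cells with no UMI of either kind. Since a cell with more UMIs is more likely to show 1 UMI of a low gene, the share depended on depth. With at least 2 UMIs of the 3 genes it was 17.4%, and with every cell thinned to 1500 UMIs and the rule applied again it was 13.5% (164 of 1216 B cells).

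**Figure D1:**
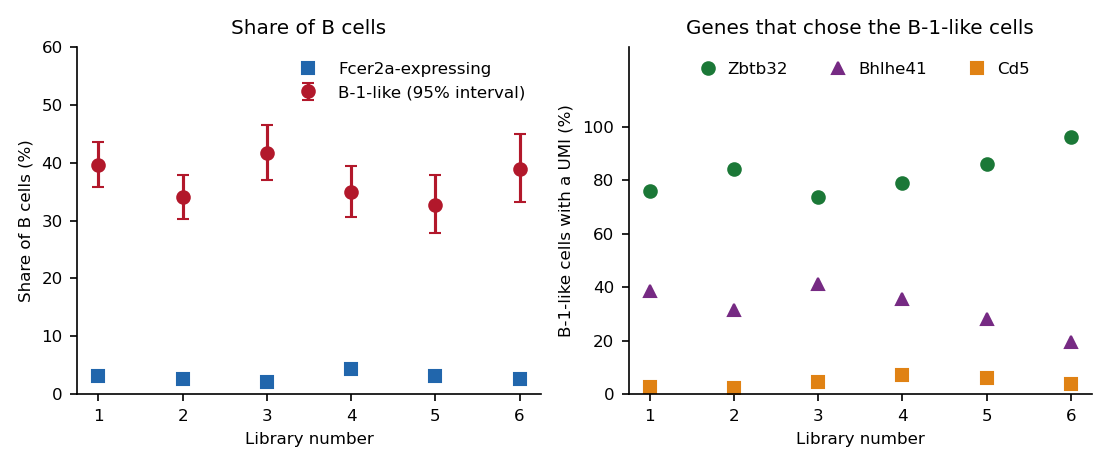
Left, share of B cells (in percent, by library number) that were B-1-like, with exact 95% intervals, or Fcer2a-expressing. Right, share of B-1-like cells (in percent, by library number) with a UMI of each gene of the rule. B-1-like cells were between 32.8 and 41.7% of B cells in every library, and library 6 had the highest share with Zbtb32 (96.3%) and the lowest with Bhlhe41 (19.4%).

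Library 6 stood apart among B-1-like cells. Over 2350 genes with a mean above 50 CPM (a gene's UMIs divided by all UMIs of the class in a library, on the CPM scale), the log2(CPM + 5) values of libraries 1 to 5 correlated across genes with r between 0.924 and 0.987, and library 6 correlated with them with r between 0.843 and 0.929 (genes are not independent replicates). It differed over 2-fold from the median of the others in 384 genes, against 28 to 89 genes for the other libraries. It also had the lowest median depth (4292.5 UMIs, against up to 7235), and Ighv transcripts were nearly missing from it, at 9.11 CPM against 208 to 483 CPM. Between libraries, 28 barcode sequences occurred more than once, on 56 barcodes, and 8 of these were B-1-like and none Fcer2a-expressing. The doublet caller Scrublet marked 61 of the 7665 cells, 1 of them B-1-like. Mertk itself had a UMI in 0 to 4.35% of B-1-like cells of a library, too few to check a genotype with.

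Zbtb32 (chr7:30589681-30598909 on GRCm38, GENCODE vM21, as for all genes below) carried most of the choice. It was seen in 81.1% of B-1-like cells, with 143 CPM in the lowest library, 192 in the median and 350 in the highest, and 63.3% of the cells were chosen by it alone. In macrophages it was seen in 0.158% of cells (median depth 5102 UMIs) and in T cells in 0.939% (2684 UMIs). Bhlhe41 (chr6:145858243-145865558) was seen in 34.0% of B-1-like cells, at 49.2, 60.3 and 66.8 CPM in the lowest, median and highest library, and 17.4% were chosen by it alone. Macrophages had Bhlhe41 too, in 14.2% of cells. Cd5 (chr19:10717116-10739002) was seen in 4.17% of B-1-like cells (43 cells, 3.63 to 11.2 CPM), while T cells, which are known for it, had it in 15.5% at less than the depth of the B cells. With so few Cd5 UMIs, B-1a and B-1b cells could not be told apart at this depth. Cells with both Zbtb32 and Bhlhe41 were 16.1%, and 10 of these cells also had Cd5.

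The label was checked on genes that the rule did not use. Bcat1, a branched-chain amino acid transaminase of B-1a cells, was seen in 29.9% of B-1-like cells and 13.1% of Fcer2a-expressing cells, against 0.896% of macrophages. At a matched depth of 1500 UMIs per cell, Bcat1 was left in 9.44%, 4.88% and 0.321% of them. Its library levels ran from 51.3 through a median of 85.4 to 177 CPM in B-1-like cells and from 0 through 59.3 to 306 CPM in Fcer2a-expressing cells, so both ranges overlapped, and its log2 fold change of 0.52 (SE 0.354) was not called (adjusted p = 0.593 by edgeR's quasi-likelihood test). Wnt1, a secreted Wnt ligand, was seen in 9.42% of B-1-like cells, with 9.87, 31.9 and 45.6 CPM in the lowest, median and highest library. Fcer2a-expressing cells had 3 UMIs of Wnt1 in 1 cell, all in library 1, and the gene was too low to be tested. Bcat1 and Wnt1 were chosen as markers with earlier results of these data known, so they are no independent support for the label. Itgam, which peritoneal B-1 cells express on their surface as CD11b, was seen in 7.57% of B-1-like cells. Fcer2a-expressing cells had 1 UMI of it, under the limit of 3 counts, so the classes were not compared. Spn (CD43), another surface marker of B-1 cells, did not separate them from Fcer2a-expressing cells (a library median of 39.6 CPM against 41.4 CPM). Against B cells with no UMI of Bhlhe41, Zbtb32 and Cd5, Spn (0.75) and Bcat1 (0.60) were called higher. Their adjusted p-values by edgeR were 0.000515 and 9.1e-05. In this comparison, chosen after the data had been seen, 11 of 24 tested B-1 markers were higher and none lower (375 of 7706 genes were higher). The marker list was itself chosen with earlier results of these data known.

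Of B-1-like cells, 545 passed on a single UMI, just inside the rule, and 1183 B cells with none lay just outside it. Lgals3 stood at 220 CPM in them, at 308 CPM in the 485 cells with 2 or more UMIs, and at 148 CPM in the cells with none. Ighd stood at 83.04, 60.9 and 159 CPM in the same order, and Wnt1 at 31.2, 33.6 and 16.0 CPM. S100a6 was at 1436, 1635 and 1238 CPM, against 488 CPM in Fcer2a-expressing cells. For Lgals3, Ighd and S100a6 the B cells with no UMI of the 3 genes lay between the B-1-like and the Fcer2a-expressing cells.

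The antigen receptors were read from the V segments, since the libraries captured transcripts at their 5′ end. A cell was given a segment if it had at least 2 UMIs of a locus and at least 80% of them from 1 segment. This gave a heavy chain segment to 336 of 1030 B-1-like cells (66 segments) and to 16 of 84 Fcer2a-expressing cells. A UMI of any Ighv segment was seen in 0.264% of macrophages. Heavy chains with Ighv11-2 or Ighv12-3, paired with the light chain segments Igkv14-126 and Igkv4-91, are the known receptors of B-1 cells for phosphatidylcholine. The 4 segments are shown because the clearest receptor pattern of the B-1-like cells rests on them. On GRCm38, Ighv11-2 lies at chr12:114048241-114048812 on the minus strand, Ighv12-3 at chr12:114366521-114366954 on the minus strand, Igkv14-126 at chr6:67896172-67896642 on the plus strand, and Igkv4-91 at chr6:68768555-68769103 on the minus strand. Each line gives the last 300 bases of the GENCODE vM21 transcript, an exon of an immunoglobulin V gene, with the codons for the Tyr-Tyr-Cys or Tyr-Phe-Cys motif, which ends at the conserved cysteine before the joining region, in capitals.
Ighv11-2: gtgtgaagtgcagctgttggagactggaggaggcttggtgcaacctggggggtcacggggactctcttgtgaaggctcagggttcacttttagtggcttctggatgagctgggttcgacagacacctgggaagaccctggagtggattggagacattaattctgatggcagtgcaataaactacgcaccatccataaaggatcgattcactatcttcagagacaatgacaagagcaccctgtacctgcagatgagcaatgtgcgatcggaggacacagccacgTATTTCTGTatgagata
Ighv12-3: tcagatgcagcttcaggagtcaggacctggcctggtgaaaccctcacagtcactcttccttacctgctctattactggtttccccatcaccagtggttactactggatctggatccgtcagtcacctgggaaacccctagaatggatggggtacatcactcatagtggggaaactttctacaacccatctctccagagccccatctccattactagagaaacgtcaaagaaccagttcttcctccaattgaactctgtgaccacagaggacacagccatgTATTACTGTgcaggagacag
Igkv14-126: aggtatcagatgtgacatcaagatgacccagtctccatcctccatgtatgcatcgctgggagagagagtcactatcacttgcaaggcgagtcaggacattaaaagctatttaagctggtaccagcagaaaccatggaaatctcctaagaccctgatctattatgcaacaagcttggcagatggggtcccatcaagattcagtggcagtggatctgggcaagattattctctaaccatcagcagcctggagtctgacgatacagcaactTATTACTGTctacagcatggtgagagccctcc
Igkv4-91: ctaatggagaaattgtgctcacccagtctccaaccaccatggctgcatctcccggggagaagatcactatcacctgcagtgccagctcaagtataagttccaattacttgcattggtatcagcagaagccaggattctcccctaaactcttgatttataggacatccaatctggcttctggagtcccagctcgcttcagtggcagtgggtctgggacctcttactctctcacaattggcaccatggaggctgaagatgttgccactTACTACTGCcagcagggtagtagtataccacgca

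Ighv9-3 was the most used heavy chain segment of B-1-like cells (48 of 336 cells, 14.3%, interval 10.7 to 18.5%), followed by Ighv6-3 (7.14%), Ighv11-2 (22 cells, 6.55%), Ighv6-6 (5.36%) and Ighv1-19 (4.17%). Ighv12-3 was used by 11 cells (3.27%). Ighv9-3 was used by 19, 14, 13, 1, 1 and 0 cells of libraries 1 to 6, so its lead came from libraries 1 to 3. In library 4 it was used by 1 cell, against 12 for Ighv11-2. Of Ighv11-2 cells, 12 of 22 came from library 4, which is where the share of these cells was highest (23.1%). The pairing of chains was close to complete. Of the Ighv11-2 cells, 19 had a kappa segment assigned, and in 19 of 19 it was Igkv14-126, while none of 176 B-1-like cells with another heavy chain segment had it. Of the Ighv12-3 cells, 6 had a kappa segment assigned, and in 5 it was Igkv4-91, against 1 of 189 B-1-like cells with other heavy chains. B cells with no UMI of Bhlhe41, Zbtb32 and Cd5 had the same pairs in 27 of 29 and in 4 of 6 cells.

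Ighv11-2 and Ighv12-3 together were carried by 9.82% of the assigned B-1-like cells and by 0 of 16 assigned Fcer2a-expressing cells. In the 5 libraries with assigned cells of both classes, B-1-like shares ran from 0 to 28.8% and those of Fcer2a-expressing cells were at 0, with a mean difference of 10.6 percentage points (higher in 4 of 5 libraries). The exact sign-flip permutation test over these 5 libraries gave a two-sided p = 0.125, where 0.0625 is the smallest p it allows, so the design could not reach 0.05. Without library 4 the mean difference was 5.98 points. Igkv14-126 was used by 26 B-1-like cells (5.51% of 472 with a kappa segment) and Igkv4-91 by 17 (3.60%), against none of the 47 Fcer2a-expressing cells, and both were higher in 5 of 6 libraries (exact permutation test, p = 0.0625, adjusted p = 0.125 over the 4 segments). B cells with no UMI of Bhlhe41, Zbtb32 and Cd5 carried Ighv11-2 or Ighv12-3 in 11.4% of 352 assigned cells, and the mean difference of B-1-like cells from them was -2.22 points (exact permutation test, p = 0.5625). The comparison with these cells was chosen after the data had been seen.

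**Figure D2:**
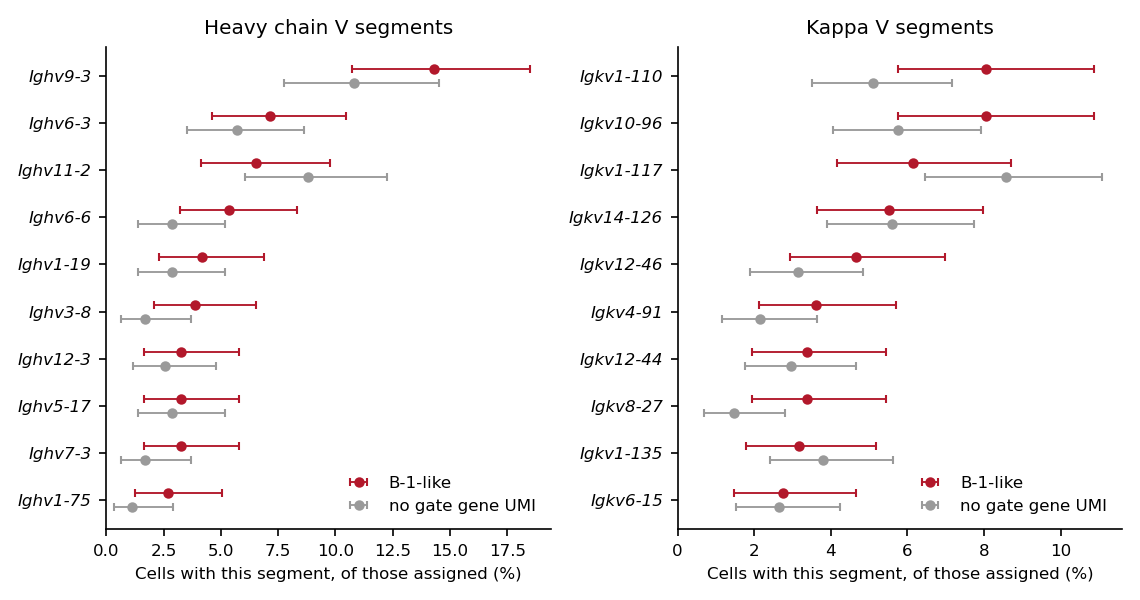
Share of cells (in percent of cells with an assigned segment) that used each of the leading heavy chain (left) and kappa (right) V segments of B-1-like cells, in B-1-like cells and in B cells with no UMI of Bhlhe41, Zbtb32 and Cd5 (grey, no gate gene UMI). Points are shares over all 6 libraries and bars exact 95% intervals for counting error. Ighv9-3 led in both (14.3% and 10.8%), and the intervals of Ighv11-2 (6.55% and 8.81%) overlap.

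The constant genes showed unswitched cells in the main. Ighm, the IgM heavy chain, was seen in 98.4% of B-1-like cells, with 1653, 1880 and 2152 CPM in the lowest, median and highest library against 1298, 1532 and 2181 CPM in Fcer2a-expressing cells, and it was not called (log2 fold change 0.30, SE 0.106, adjusted p = 0.121, edgeR). With the limits on Vpreb3, Egr3 and Egr4 in both classes it was called (0.61, adjusted p = 0.012, edgeR). Ighg3 was seen in 64 B-1-like cells (6.21%), Igha in 36 (3.50%), Ighg2b in 28 (2.72%), Ighg2c in 5, Ighe in 2 and Ighg1 in 1. Each of these was seen in at most 1 macrophage. Fcer2a-expressing cells had Igha in 3 of 84 cells and the other switched isotypes in 0 of 84, which allows a share of up to 3.57%. The classes were not tested against each other for isotypes. Ighg2b and Ighg2c are near-identical copies whose reads can be split between them. Light chains were less clear. Of the 990 B-1-like cells with at least 2 light chain constant UMIs, 77.3% had UMIs of both Igkc and the Iglc genes, with medians of 5 kappa and 8 lambda UMIs, so these counts did not read 1 light chain per cell. Lambda exceeded kappa in 65.2% of B-1-like and 53.7% of Fcer2a-expressing cells, with a mean difference within libraries of 10.8 points (higher in 4 of 6, exact permutation test, p = 0.156, smallest possible 0.03125). Iglc2 and Iglc3 are near-identical as well.

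Gene levels were compared with UMIs summed per library and class, 12 sums in all, with the library as a block (edgeR, quasi-likelihood test, Benjamini-Hochberg adjusted p below 0.05). The sums held 548775 to 1930902 UMIs for B-1-like cells and 19639 to 84036 for Fcer2a-expressing cells, so the latter set the precision. Of 3630 genes tested, 71 were higher in B-1-like cells (1.96%) and 56 lower (1.54%), with a median log2 fold change over all genes of 0.05. Of those called, 52 and 35 moved the same way in all 6 libraries, and the library values of 10 and 11 did not overlap between the classes. Both were counted among called genes only and not over all genes tested, so they have no share to be set against. At an unadjusted p under 0.05, 480 genes passed. The counts rest on comparing the classes within libraries, and without the library as a block 6 genes were higher and 7 lower. Without library 6, 62 and 42 genes were called, without library 1 it was 27 and 24, and without library 4 it was 40 and 28. In cells of 2000 to 5000 UMIs in both classes, a setting added after seeing the data, 31 and 24 of 905 genes were called, and of the 72 genes called in all cells that were tested there, 71 kept their direction. Of the 84 Fcer2a-expressing cells, 35 were over the limits that the rule sets on Vpreb3, Egr3 and Egr4 in B-1-like cells only, and the 10 cells over the Egr limit held 24.1% of the UMIs of the class. With the same limits on both classes, which left 49 Fcer2a-expressing cells, 47 genes were higher and 13 lower. Of the 57 named genes that were called, 24 of the 55 that could be tested under the same limits were still called, and without library 6 it was 44 of 57. Against B cells with no UMI of Bhlhe41, Zbtb32 and Cd5, a comparison chosen after the data had been seen, 41 of the 57 were called. Genes still called were closer there than to Fcer2a-expressing cells. Lgals3 was at 0.78 (against 4.26), Fgl2 at 0.35 (2.39), Fabp5 at 0.56 (2.34) and S100a6 at 0.27 (1.74). Ptpn22 was at 0.38 (1.65), Nfatc1 at 0.39 (1.24), Ighd at -1.17 (-2.52) and Ltb at -0.96 (-1.93).

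**Figure D3:**
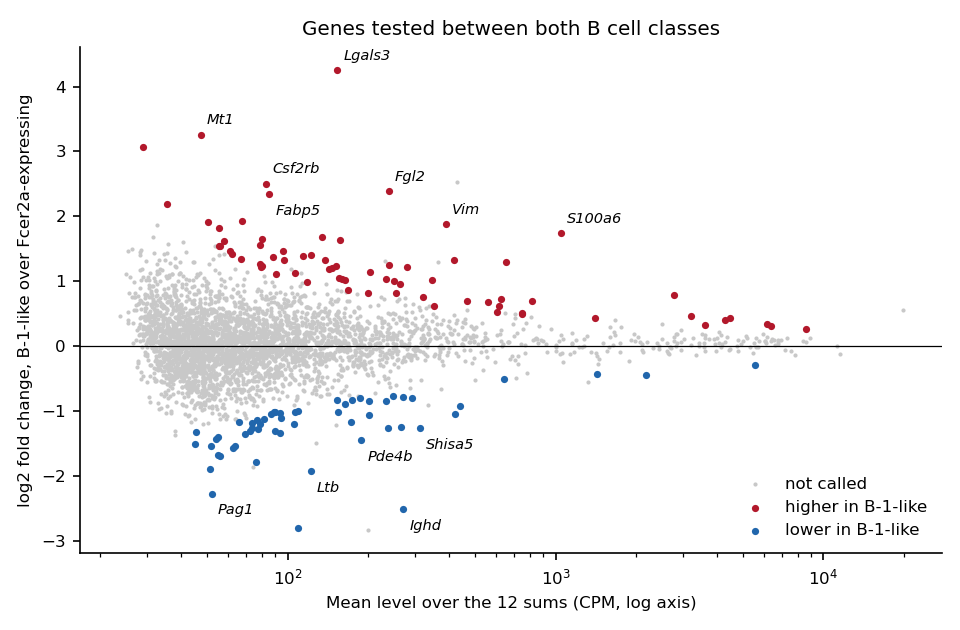
Each of the 3630 genes tested, by its mean level over the 12 sums (CPM, log axis) and its log2 fold change in B-1-like over Fcer2a-expressing B cells. Coloured points are the 71 genes called higher and the 56 called lower, with Lgals3 at the top (4.26) of those called.

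Lgals3 (chr14:47367751-47386160), which encodes the carbohydrate-binding lectin galectin-3, differed most. It ran from 195 through a median of 266 to 395 CPM in B-1-like cells and from 0 through 8.72 to 56.0 CPM in Fcer2a-expressing cells, so the classes did not overlap. The log2 fold change was 4.26 (SE 0.417, adjusted p = 5.7e-15, edgeR). Macrophages had 400 CPM and T cells 143 CPM of Lgals3. Vim, the intermediate filament vimentin, was at 291, 599 and 850 CPM in the lowest, median and highest library against 31.3, 90.9 and 458 CPM (log2 fold change 1.87, SE 0.244, adjusted p = 2.2e-06, edgeR). It was higher in all 6 libraries, although the 2 highest libraries of the Fcer2a-expressing cells reached the range of B-1-like cells. Against B cells with no UMI of Bhlhe41, Zbtb32 and Cd5, Vim differed by 0.22 (adjusted p = 0.463, edgeR) and Mt1, a metallothionein, by 0.32 (adjusted p = 0.555, edgeR). Plec, a cytoskeletal linker (1.82), and Lasp1, an actin-binding protein (1.63), rose as well, though Plec was not called with the same limits on both classes (adjusted p = 0.133, edgeR). Mt1 and Cdk14, a cyclin-dependent kinase, were called at 3.26 and 3.06, but Fcer2a-expressing cells had only 3 and 2 UMIs of them. Their ratios of pooled CPM were 9.14 (interval 3.11 to 44.4) and 8.27 (2.27 to 68.6), counting error only.

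The rest of the 15 largest changes among genes higher in all 6 libraries were of several kinds. Fgl2, a fibrinogen-like protein of immune cells, was at 186, 275 and 692 CPM against 0, 16.5 and 458 CPM (log2 fold change 2.39). Serpinb9 and Serpinb6b, serine protease inhibitors of which Serpinb9 blocks granzyme B, rose by 1.56 and 1.68 on the log2 scale. Agpat4, an acyltransferase of phospholipid synthesis, rose by 1.92, Igf2r, the receptor that carries mannose 6-phosphate proteins to lysosomes, by 1.54, St3gal1, a sialyltransferase, by 1.47, Arf3, a small GTPase of the Golgi, by 1.47, Ptms by 1.62 and Kctd14 by 2.18. Their adjusted p-values by edgeR ran from 0.00425 (St3gal1) to 0.0483 (Igf2r), and their library values overlapped between the classes. Serpinb6b was not called against B cells with no UMI of Bhlhe41, Zbtb32 and Cd5 (0.72, adjusted p = 0.148, edgeR). With the same limits on both classes, Fgl2 and Serpinb6b were still called, and the adjusted p-values of the others ran from 0.0598 (Serpinb9) to 0.395 (Arf3). Without library 6, Igf2r and Arf3 were not called (adjusted p = 0.0656 and 0.0736, edgeR).

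Of 26 genes listed as B-1 markers outside the rule, 15 could be tested, 6 were higher in B-1-like cells (against 1.96% of all genes) and none lower, with a median log2 fold change of 0.75. This list and those below were chosen with earlier results of these data known, so their counts are no independent support for the label. S100a6 (chr3:90612882-90624181), a calcium-binding protein, ran from 1225 through 1511 to 2065 CPM against 318, 425 and 1082 CPM, with no overlap (1.74, SE 0.173, adjusted p = 8.8e-08, edgeR). It was seen in 93.1% of B-1-like cells and in 31.7% of macrophages. Ptpn22, a phosphatase that dampens antigen receptor signals, was at 96.3, 115 and 184 CPM against 17.4, 33.0 and 78.2 CPM, also without overlap (1.65, SE 0.382, adjusted p = 0.00305, edgeR). Cd9, a tetraspanin of B-1 and marginal zone B cells, was higher by 1.20 in 5 of 6 libraries, Lgals1, which encodes galectin-1, by 1.14 and Ahnak, a giant scaffold protein, by 1.92. Apoe, the lipid carrier apolipoprotein E, was higher by 0.82 (adjusted p = 0.0483, edgeR), from 72.9 to 482 CPM against 0 to 384 CPM. Apoe was at 4960 CPM in macrophages and at 4.02 CPM in T cells of the same libraries, and against B cells with no UMI of Bhlhe41, Zbtb32 and Cd5 it was -0.53 (adjusted p = 0.113, edgeR). The part of macrophage RNA in the Apoe values was not tested. With the same limits on both classes, 5 of 13 tested markers were higher. Ahnak was also not called against B cells with no UMI of Bhlhe41, Zbtb32 and Cd5 (0.25, adjusted p = 0.116, edgeR). Cd9 and Ahnak missed the call under the same limits (adjusted p = 0.121 and 0.0887, edgeR), and Ccnd2 passed it (1.32, adjusted p = 0.00505, edgeR). The markers not called over all cells included Ccnd2 (0.75), Rasgrp1 (0.71) and Fcrl5 (0.29), and Il5ra, the receptor for IL-5, on which B-1 cells depend, was too low for the test at 22.6 against 5.95 CPM in the median library.

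Of 20 follicular B cell genes outside the rule, 17 could be tested, none was higher and 6 were lower (against 1.54% of all genes), with a median of -0.25. Ighd (chr12:113406604-113416324), the IgD heavy chain, was at 39.1, 77.6 and 94.8 CPM in the lowest, median and highest library of B-1-like cells and at 205, 460 and 787 CPM in Fcer2a-expressing cells, so each library of the one lay below each of the other (-2.52, SE 0.230, adjusted p = 1.5e-16, edgeR). It was seen in 31.7% of B-1-like cells and 66.7% of Fcer2a-expressing cells. Ltb, a lymphotoxin subunit by which B cells shape lymphoid tissue, fell by 1.93, Satb1, a chromatin organizer, by 1.26, Cd55, a complement regulator, by 1.19 and Fcmr, the IgM Fc receptor, by 0.90. With the limits on Vpreb3, Egr3 and Egr4 in both classes, Ighd, Ltb and Satb1 were still called, and Fcmr (adjusted p = 0.308, edgeR) and Cd55 (adjusted p = 0.662, edgeR) were not. Fcmr (-0.25) and Cd55 (-0.31) were also not called against B cells with no UMI of Bhlhe41, Zbtb32 and Cd5 (adjusted p = 0.0735 and 0.108, edgeR). Cxcr5, Klf2, S1pr1 and Ccr7, receptors and a regulator of B cell traffic, were between -0.57 and 0.29 and not called.

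**Figure D4:**
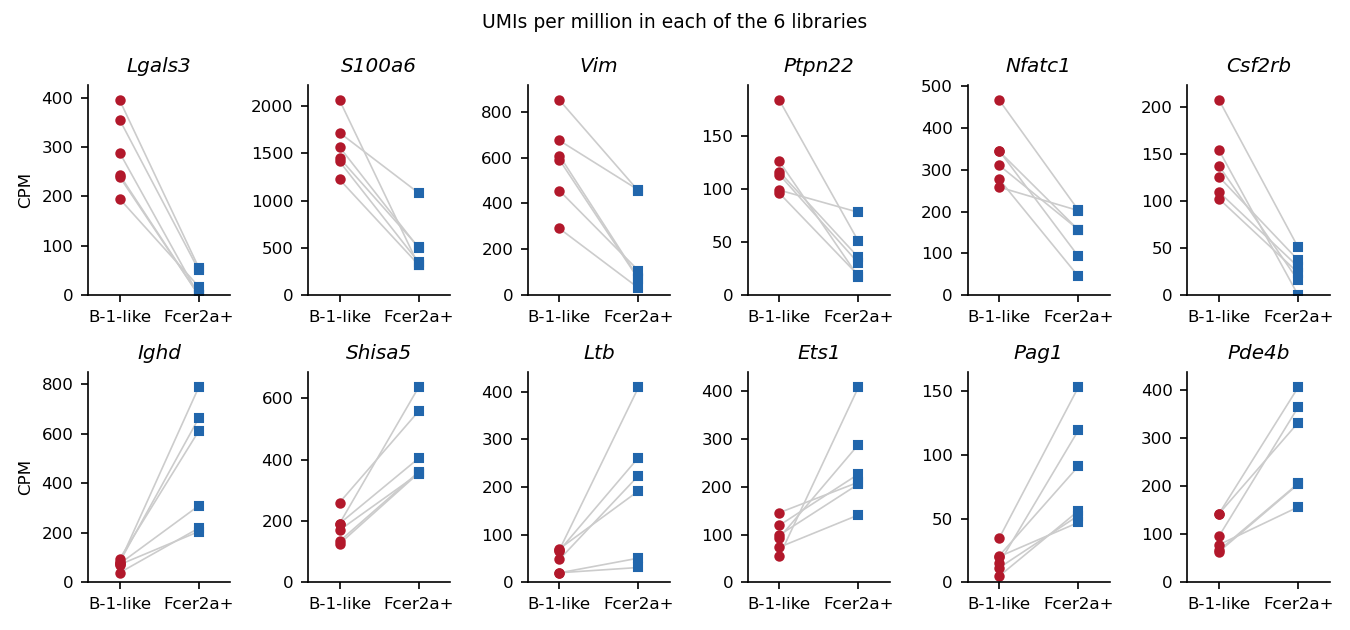
Level (CPM, linear axes from 0) of 12 genes in each of the 6 libraries, in B-1-like cells (circles) and Fcer2a-expressing cells (squares), with a line for each library. Lgals3 and S100a6 were higher in B-1-like cells in 6 of 6 libraries, and Ighd, Shisa5 and Pag1 lower in 6 of 6.

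Signalling genes were grouped by role. Of 15 tested activators of antigen receptor signalling, 1 was higher (against 1.96% of all genes) and none lower. It was Nfatc1, the calcium-dependent factor NFAT2, which is needed for B-1a cells. It ran from 258 through 327 to 466 CPM against 45.4, 157 and 204 CPM, without overlap (1.24, SE 0.238, adjusted p = 0.00015, edgeR). Lyn, Syk, Blnk and Plcg2 lay between -0.42 and 0.20 and were not called. Of 11 tested inhibitors, 2 were higher (against 1.96% of all genes) and none lower, Ptpn22 and Siglecg. Siglecg, the sialic acid receptor that restrains B-1 cells, was at 262, 274 and 421 CPM against 15.6, 160 and 509 CPM (0.82, SE 0.246, adjusted p = 0.0459, edgeR), higher in 5 of 6 libraries, and it was not called with the same limits on both classes (adjusted p = 0.0537, edgeR) or against B cells with no UMI of Bhlhe41, Zbtb32 and Cd5 (0.15, adjusted p = 0.148, edgeR). Cd22, Fcgr2b and Dok3 (0.37, 0.46 and 0.65) were not called. Compared with B cells with no UMI of Bhlhe41, Zbtb32 and Cd5, 3 of 13 tested inhibitors were higher and 5 lower. Cd22 was among the lower ones there (-0.35, adjusted p = 0.00635, edgeR). Of 16 tested activators, 3 were higher and 7 lower in that comparison (375 and 391 of 7706 genes). Among the genes that fell outside the lists, several also act in lymphocyte signalling. Pag1, a membrane adaptor that recruits the kinase Csk, was at 4.94, 17.6 and 34.6 CPM against 46.9, 73.4 and 153 CPM, with no overlap (-2.28, SE 0.395, adjusted p = 2.2e-05, edgeR). Pde4b, a phosphodiesterase that breaks down cAMP, was at 63.8, 87.2 and 143 CPM against 156, 268 and 405 CPM (-1.45, SE 0.237, adjusted p = 5.5e-06, edgeR). Rasgrp2 and Rasgrp3, exchange factors for small GTPases, fell by 1.54 and 1.52, Slamf6, a receptor for lymphocyte contact, by 1.57 and Gpr171 by 1.70. Pag1, Pde4b and Slamf6 were still called with the same limits on both classes, and Rasgrp2 (adjusted p = 0.0558, edgeR) and Gpr171 (adjusted p = 0.159, edgeR) were not. Rasgrp3 was too low to be tested there. Rasgrp2 was at -0.31 against B cells with no UMI of Bhlhe41, Zbtb32 and Cd5 (adjusted p = 0.258, edgeR).

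Among the other genes that fell in all 6 libraries, those with the largest changes were Shisa5, a membrane protein of cell death (126, 181 and 260 CPM against 355, 382 and 636 CPM, -1.26, SE 0.197, adjusted p = 1.7e-06, edgeR), Sorl1, a sorting receptor (-1.54), Gramd1a, a sterol transfer protein (-1.68), Parp1, the DNA damage enzyme (-1.32), Fchsd2 (-1.31) and Ripor2 (-1.14). Shisa5, Parp1 and Fchsd2 did not overlap between the classes. H2-Q7 and H2-Q4, class I genes of the Qa family whose near-identical copies can share reads, fell by 1.26 and 1.20. Of these, Shisa5 and Gramd1a were still called with the same limits on both classes, and the adjusted p-values of the others ran from 0.0552 (Parp1) to 0.626 (H2-Q4). Against B cells with no UMI of Bhlhe41, Zbtb32 and Cd5, Gramd1a was at -0.02 (adjusted p = 0.963, edgeR) and Parp1 at -0.32 (adjusted p = 0.08, edgeR). Of 57 named genes that were called, 8 kept their call in every setting in which they were tested, among them Lgals3, S100a6, Ptpn22, Ighd, Pag1, Pde4b and Shisa5.

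Of 26 tested B cell transcription factors, 2 were higher and 4 lower (against 1.96% and 1.54% of all genes), with a median of -0.12. Nfatc1 and Id2, an inhibitor of E proteins, rose (1.24 and 1.03). Id2 was at 150, 243 and 610 CPM against 15.1, 143 and 356 CPM and was higher in 5 of 6 libraries (SE 0.289, adjusted p = 0.0385, edgeR). Its relative Id3 fell by 1.79 (12.8, 36.3 and 53.8 CPM against 15.6, 115 and 227 CPM, adjusted p = 7.5e-05, edgeR), and against B cells with no UMI of Bhlhe41, Zbtb32 and Cd5 it was -0.34 (adjusted p = 0.186, edgeR). Ets1, which restrains plasma cell differentiation, fell by 1.17, Spib by 1.17 and Ebf1, a factor of B cell identity, by 0.50. Under the same limits on Vpreb3, Egr3 and Egr4 in both classes, Id3 and Nfatc1 kept their calls, while adjusted p was 0.497 for Id2, 0.175 for Ets1, 0.508 for Spib and 0.688 for Ebf1 (edgeR). Without library 6, Id2, Spib and Ebf1 were not called either (adjusted p = 0.129, 0.118 and 0.13, edgeR). Id2, Ets1, Spib and Ebf1 were called against B cells with no UMI of Bhlhe41, Zbtb32 and Cd5. There they were at 0.45, -0.58, -0.60 and -0.24 (adjusted p = 7.0e-05, 2.5e-05, 0.00114 and 0.000997, edgeR). Pax5, Bach2, Irf4, Irf8 and Foxp1 were between -0.43 and 0.12 and not called. Arid3a, a factor of fetal B lymphopoiesis, was at 0.79 (SE 0.535) and not called.

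Of 14 tested cytokines and their receptors, 1 was higher and 1 lower (against 1.96% and 1.54% of all genes). Csf2rb, the shared beta chain of the receptors for IL-3, IL-5 and GM-CSF, was higher and Ltb lower. Csf2rb ran from 103 through 132 to 208 CPM against 0, 27.0 and 50.9 CPM, without overlap (2.50, SE 0.424, adjusted p = 1.3e-05, edgeR). Csf2rb2 is a near-identical copy that can take some of its reads. Against B cells with no UMI of Bhlhe41, Zbtb32 and Cd5, Csf2rb differed by only 0.07 (adjusted p = 0.723, edgeR). Il10, the anti-inflammatory cytokine that B-1 cells are known to secrete, ran from 20.1 through 48.2 to 186 CPM, the highest in library 6, against 0, 37.3 and 122 CPM, and was not called (0.45, SE 0.707). It was seen in 14.8% of B-1-like cells and 0.738% of macrophages. The chemokine Ccl4 ran from 37.0 through 630 to 1680 CPM in B-1-like cells and was 0 in 4 libraries of Fcer2a-expressing cells, but 1032 CPM in library 3, where 3 of 9 such cells were over the Egr limit. Macrophages had 1276 CPM of it. It was not called over all cells (2.53, SE 0.814, adjusted p = 0.269, edgeR) and was called with the same limits on both classes (6.85, SE 0.614, adjusted p = 2.9e-25, edgeR). That size was set against 49 Fcer2a-expressing cells with no Ccl4 in at least 4 of 6 libraries. Ccl4 was not called against B cells with no UMI of Bhlhe41, Zbtb32 and Cd5 (2.12, adjusted p = 0.0541, edgeR). Tgfb1 was higher in 6 of 6 libraries (0.69, SE 0.220) with an adjusted p of 0.0534 by edgeR.

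Of 14 tested adhesion genes, 2 were higher and 1 lower (against 1.96% and 1.54% of all genes). The higher ones were Itgb1, the integrin beta 1 chain, and Cd9. Itgb1 was at 104, 174 and 180 CPM against 15.1, 70.1 and 107 CPM and higher in 6 of 6 libraries (1.39, SE 0.324, adjusted p = 0.00325, edgeR). The B-1-like value of library 3 was the one that reached the range of the other class. Itgb1 differed by 0.17 from B cells with no UMI of Bhlhe41, Zbtb32 and Cd5 (adjusted p = 0.206, edgeR). Itga4, Itgb2, Itgal and Cd44 were between -0.05 and 0.73 and not called. Of 12 tested antigen presentation genes none rose and 3 fell (against 1.54% of all genes), H2-Oa (-1.28) and H2-Ob (-0.84), both chains of the peptide-loading inhibitor H2-O, and H2-DMb2 (-0.81), a chain of the peptide loader H2-DM that it inhibits. The class II chains themselves, H2-Aa, H2-Ab1 and H2-Eb1, lay between -0.27 and 0.18 and were not called. With the same limits on both classes H2-Oa, H2-Ob and H2-DMb2 were no longer called, with adjusted p-values of 0.518, 0.144 and 0.662 by edgeR. Against B cells with no UMI of Bhlhe41, Zbtb32 and Cd5 they were called lower (adjusted p = 0.0117, 3.4e-05 and 0.00548, edgeR). There 8 of 15 tested genes of this list were lower and 1 higher (391 and 375 of 7706 genes).

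Metabolic lists held a single call. Fabp5, a fatty acid carrier, was at 73.0, 109 and 290 CPM, the highest in library 6, against 0, 7.82 and 102 CPM (2.34, SE 0.453, adjusted p = 0.00025, edgeR). It was the 1 call among 5 tested genes of lipid use (against 1.96% of all genes higher). None of 11 glycolysis genes was called, though 10 were above 0, with a median of 0.37. Gapdh was nearest, at 512 to 945 CPM against 509 to 766 CPM, higher in 6 of 6 libraries (0.44, SE 0.149, adjusted p = 0.087, edgeR). Of 4 tested genes of branched-chain amino acid use, Bcat1 among them, and of 2 tested Wnt pathway genes, none was called. The plasma cell and secretory list (11 tested, median 0.58) had 1 call, higher (against 1.96% of all genes). It was the endoplasmic reticulum chaperone Hsp90b1 (0.70, SE 0.192, adjusted p = 0.0435, edgeR). Hsp90b1 missed the call without library 6 (adjusted p = 0.167, edgeR) and with the same limits on both classes (adjusted p = 0.0806, edgeR). Against B cells with no UMI of Bhlhe41, Zbtb32 and Cd5 it was called (0.52, adjusted p = 0.0012, edgeR). There 9 of 14 tested genes of this list were higher and none lower (375 of 7706 genes were higher). Mzb1 (0.62) and Ell2 (1.41) missed it with adjusted p-values of 0.0721 and 0.0699 by edgeR. Toll-like receptor (3 tested), survival (9 tested) and cell cycle (2 tested) genes had no calls.

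Of 14 tested immediate early genes, none was higher and 2 were lower (against 1.54% of all genes), Junb (-1.05) and Btg2 (-0.77), with a median of -0.63. This list is touched by the rule, which limits Egr3 and Egr4 in B-1-like cells and not in the comparison cells. The 10 comparison cells over that limit held 124 of the 129 Egr3 and Egr4 UMIs of their class. With the limits on both classes, adjusted p was 0.925 for Junb and 0.980 for Btg2 (edgeR). The list median was then 0.41, with 1 of 13 tested genes higher and none lower (47 of 3390 genes were higher). Compared with B cells with no UMI of Bhlhe41, Zbtb32 and Cd5, the list median was 0.22. There 5 of 17 tested genes of this list were higher and 2 lower (375 and 391 of 7706 genes). The lower median thus did not hold in either setting. In cells of 2000 to 5000 UMIs, the log2 fold change of Junb was 0.65 (adjusted p = 0.375, edgeR).

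**Figure D5:**
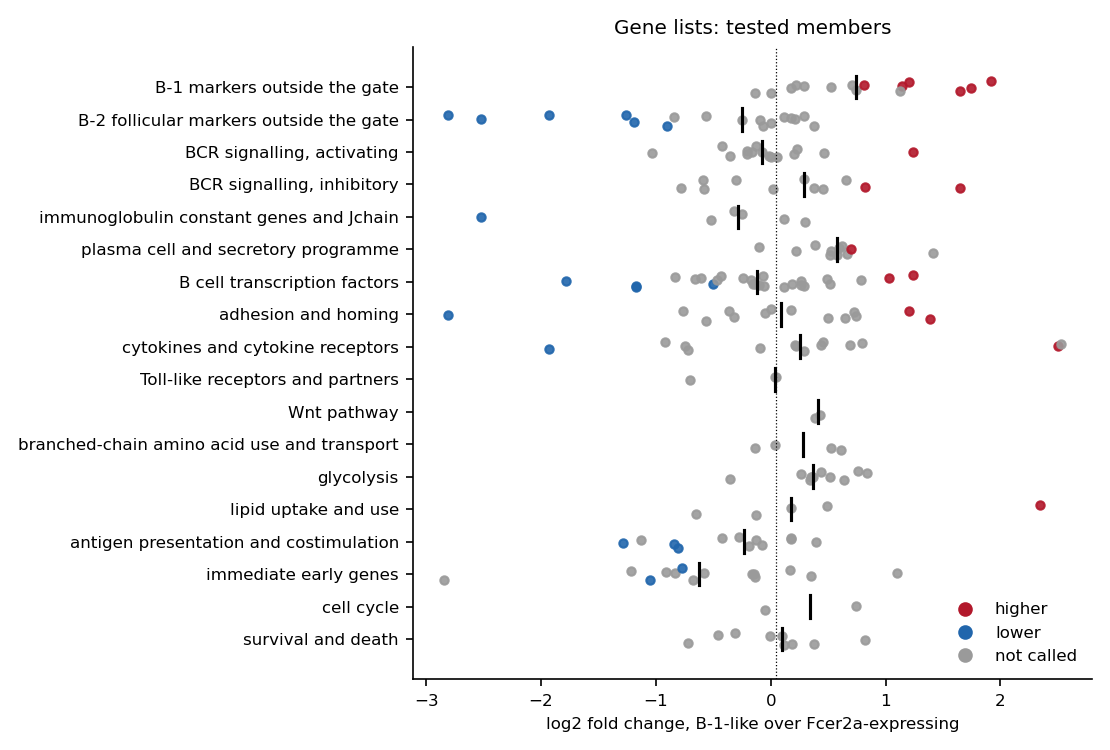
Log2 fold change in B-1-like over Fcer2a-expressing B cells of the tested members of each gene list (a gene can be in more than 1 list, and the gate is the set of genes that the rule used). Coloured points were called, black bars are list medians, and the dotted line is the median of all genes (0.05). The B-1 markers have 6 calls, all higher, and the follicular markers 6, all lower. The lists were chosen with earlier results of these data known.

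Markers of other cell types were low in B-1-like cells and moved with the class for some. The 16 macrophage markers summed to 328 CPM in B-1-like cells (128 to 563 CPM by library) and 226 CPM in Fcer2a-expressing cells (0 to 401 CPM), against 39200 CPM in macrophages, with 13 of 16 detected. Apoe, which is on this list, accounted for 273 CPM of the 328 CPM. The 13 T cell markers summed to 49.4 CPM (30.9 to 76.5 CPM) in B-1-like cells and 104 CPM (30.3 to 282 CPM) in Fcer2a-expressing cells, against 3656 CPM in T cells. Ltb was at 512 CPM and Satb1 at 513 CPM in T cells, and the part of T cell RNA in their differences was not tested. Dendritic cell markers summed to 8.90 and 26.1 CPM, NK cell markers to 9.71 and 5.80 CPM, mast, mesothelial and erythroid cell markers to at most 1.89 CPM in either class, and neutrophil markers were at 0 in both. Plasma cell markers summed to 522 CPM in B-1-like cells (200.4 to 613 CPM) and 357 CPM in Fcer2a-expressing cells (205 to 488 CPM).

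In the promoters of the called genes (RefSeq on GRCm38.p6, 250 bases before to 50 after the start), the E-box CACGTG, the same letters on both strands and a known target of Bhlhe41, occurred in 5 of 55 genes higher in B-1-like cells (9.09%) and 4 of 48 lower (8.33%). It occurred in 13.4% of the promoters of all genes tested and in 8.09% of all 27025 promoters.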

How the data were processed

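Droplet 5′ single-cell RNA-seq was made from adherent peritoneal cells in 6 libraries. The authors aligned reads to combined human and mouse genomes (hg38 and mm10) with STAR in Cell Ranger (version 2.2 in the submitters' notes, which also name Seurat 3.0) and deposited raw UMI counts of mouse genes in 1 table of 55538 features and 7760 barcodes. The annotation is not given in the sources used here. No normalized values were used. Library numbers 1 to 6 were read from the barcodes and were not assigned to samples.

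Cells, members and gene lists were chosen with earlier results of these data known. Counts were summed per library number and class (12 sums). Genes were tested with edgeR 4.0.16 in R 4.3.3 (TMM, filterByExpr, robust quasi-likelihood F test, library number as block, Benjamini-Hochberg adjusted p below 0.05), leaving out the 13 genes of the rule. The SE of a log2 fold change is its size divided by the root of F. The block is the library both classes were captured in. Named are the genes of the rule and of the lists, and the 15 with the largest change in each direction among other called genes of at least 20 CPM that moved one way in all 6 libraries (1 with only a clone name is left out). Some named genes are not reported here, though they are in the counts. Shares have exact (Clopper-Pearson) 95% intervals, which cover counting error only, as does the limit of 3 counts for a count of 0. Paired shares were compared by exact two-sided sign-flip permutation tests (scipy 1.17.1). Doublets were called with Scrublet in scanpy 1.11.5 (expected rate 0.01) and kept. Macrophages and T cells used as references are cells with at least 2 UMIs of Csf1r and Adgre1, or of Cd3d and Cd3e, and none of the other pair or of Cd79a and Cd79b. Alternatives were DESeq2 1.42.0, no low-count filter, no block, other limits on cells, thinning to 1500 UMIs, and each library left out.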

Additional observations from a re-analysis of the deposited data

Results flagged for a closer look

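Among the 6 libraries, 68 values of B-1-like cells were searched for a library whose gap to the nearest other one exceeded Dixon's 95% critical value for 6 values, and 9 passed. Chance flags about 1 in 20. Library 6 was the highest for Gramd1a (43.7 CPM, next 27.2), Ptpn22 (184 CPM, next 126), Satb1 (301 CPM, next 157), Siglecg (421 CPM, next 316), Fabp5 (289.7 CPM, next 123) and Junb (417 CPM, next 263), and the lowest for Btg2 (108 CPM, next 171). Library 2 was the highest for Cd55 (64.5 CPM, next 41.9) and library 3 the lowest for Itgb1 (104 CPM, next 164). Library 6 is also the one with the lowest median depth and the fewest Ighv transcripts. Without it, Gramd1a, Ptpn22, Satb1, Siglecg and Fabp5 were still called and Junb and Btg2 were not.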

How the results depend on the processing

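Against 127 called genes (71 higher, 56 lower), DESeq2 called 75 (33 and 42), no filter on low counts 456 (416 and 40, with a median over all genes of 0.71), the limits on Vpreb3, Egr3 and Egr4 in both classes 60 (47 and 13, median 0.16), cells with at least 1000 genes 59 (42 and 17) and cells thinned to 1500 UMIs 76 (46 and 30 of 1057 tested). Of the calls, 55.9% were higher, against 44.0% with DESeq2, 91.2% with no filter, 78.3% with the limits in both classes and 71.2% with at least 1000 genes. Without the replicate block by library, 13 were called (6 and 7). Leaving out 1 library gave 51 to 140 calls, 27 to 80 higher and 24 to 60 lower, and the count fell by over 1.5 times without library 1 (51) and library 4 (68), and for lower genes also without library 2 (35). The next comparison, the 2000 to 5000 UMI range and the removal of barcodes shared between libraries (128 calls) were chosen after seeing the data. Against B cells with no UMI of Bhlhe41, Zbtb32 and Cd5, 766 genes were called (375 and 391), 43 and 43 of them also called against Fcer2a-expressing cells, the phosphatidylcholine-binding share differed by -2.22 points (exact permutation test, p = 0.5625) and Apoe by -0.53. In cells of 2000 to 5000 UMIs 55 were called (31 and 24), and Junb turned to 0.65. The share of B-1-like cells was 17.4% with at least 2 UMIs and 13.5% in thinned cells. Leaving out 1 library gave differences of 5.98 to 13.2 points for the phosphatidylcholine-binding share and 8.14 to 16.0 for lambda. With at least 5 UMIs and 90% of a locus, only 1 Fcer2a-expressing cell had a heavy chain segment, so no test was made. Of the 57 named genes, 55 kept their direction in every setting in which they were tested, Apoe and Junb being the exceptions. The 344583 UMIs of the Fcer2a-expressing cells limit the precision.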
